A study of Drosophila melanogaster with 4 samples.

Results

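The cpx locus (FBgn0041605, chromosome 3R, plus strand) was examined with the intron that lies inside it on the opposite strand. Its members were every deposited splicing event within cpx, the opposite-strand retained intron event at 3R:119090-119474 (dm3) and the exon bins of cpx. They made up 27 of 31994 listed splicing events, namely 23 retained introns, 2 skipped exons and 1 alternative 3′ splice site of cpx and the 1 opposite-strand intron, together with 32 exon bins. The locus was chosen by its measured values, since its long intron had a large difference in retention between mutant and wild type larvae, and the mutant and wild type values below are a description and carry no test. The published larval stages in the exon tables were not used in that choice.

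The tested larvae carried the Smn allele combination that the labels give as SmnX7/D, and the wild type larvae were Oregon R. The product of Smn, the survival motor neuron protein, helps to assemble the core particles of the spliceosome. In both groups the RNA was polyadenylated RNA of whole larvae aged 74 ± 2 h from egg laying and reared at 24 ± 1 °C, with 2 libraries per group. The series asks how far a delay in development accounts for differences between the mutants and wild type larvae of the same age. Nothing in the labels says whether the 2 libraries of a group came from separate collections of larvae, so their spread may be technical. The level of Smn itself was not analysed here.

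Complexin, the protein of cpx, is a small presynaptic protein that binds the assembled SNARE complex, the bundle of syntaxin, SNAP-25 and synaptobrevin that drives fusion of synaptic vesicles. At the Drosophila larval neuromuscular junction it restrains spontaneous vesicle fusion and promotes fusion evoked by calcium. The gene has several promoters, and the coding sequence of its short first exons is joined to the SNARE-binding part by splicing over introns of up to 10722 bases. Inside those introns lies Nepl11 (FBgn0037230, neprilysin-like 11), transcribed from the other strand, a member of the neprilysin family of membrane metallopeptidases. Each is a gene of its own, and where strand is not marked RNA of Nepl11 can be read as intron sequence of cpx.

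The splice sites of both genes are shown because the strand of a spliced read can be told only from them. The annotated sites were read from the RefSeq dm6 genome, to which dm3 coordinates were not converted. The donor of the 10722-base cpx intron (3R:4284397-4284416, plus strand), the donor of the shorter intron that starts closer to Nepl11 (3R:4292063-4292082, plus strand) and the acceptor that they share (3R:4295100-4295137, plus strand) are given with the Nepl11 donor (3R:4293743-4293762, minus strand) and acceptor (3R:4293358-4293377, minus strand). Capitals mark the first 2 or the last 2 bases of each intron, and the shared cpx acceptor has 2 such sites, 9 bases apart.
cpx 10722-base intron donor: gccgttaaagGTaagtcgca
cpx 3056-base intron donor: aatttcattgGTatgaagca
cpx shared acceptor: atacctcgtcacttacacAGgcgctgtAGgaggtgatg
Nepl11 intron donor: tacttgatggGTgagttttt
Nepl11 intron acceptor: cctttattAGacatcgtaga
Both introns begin with GT and end with AG on their own strand, so a read across the Nepl11 junction is distinguishable from a cpx junction. An unspliced read is not: the kit named in the labels does not mark strand, and reads of the cpx intron and of Nepl11 cannot be told apart where the genes overlap. The dm6 annotation holds 21 cpx transcripts with 7 different introns around the Nepl11 intron, and 6 of these had a listed event.

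**Figure D1:**
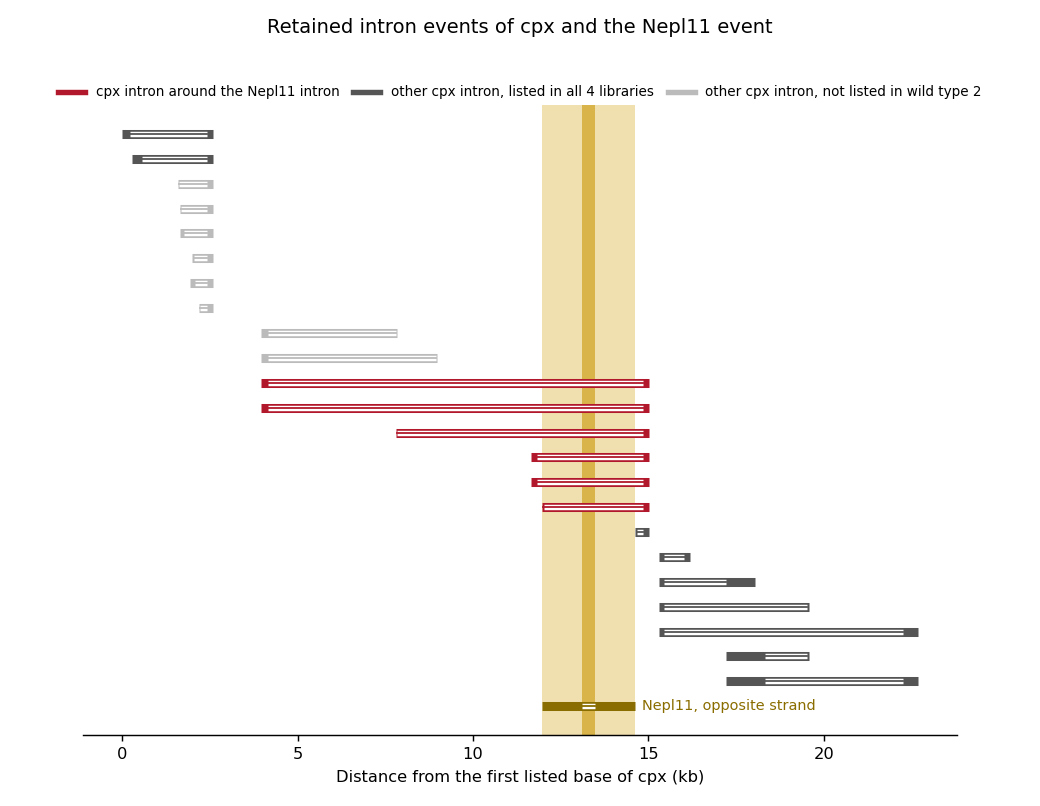
Each line is a retained intron event, with exons filled and the intron open, placed by its distance in kb from the first listed base of cpx. The 6 red events enclose the Nepl11 intron (dark band) and most or all of its listed exons (light band). The other cpx introns lie to either side of Nepl11.

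Each of the 23758 retained introns listed in all 4 libraries had at least 20 read pairs in each. Those events drew 28708594 and 27366963 pairs in Smn mutants 1 and 2, against 26532409 and 18702512 in wild type 1 and 2. Of the 23 cpx introns, 15 were listed in all 4 libraries and 8 were not listed in wild type 2, the shallowest library. Neuronal marker genes with a listed intron (6 of 12) summed to 94.6 and 73.5 scaled pairs (spliced pairs per 1000000 spliced pairs of the tested introns of that library) in Smn mutants 1 and 2, against 65.4 and 160 in wild type 1 and 2. The overlap of the groups rests on Syt1, since the other 5 genes summed to 54.7 and 45.7 scaled pairs in mutants, against 24.5 and 28.1 in wild type. Syt1 was set apart after its values were seen. Each marker gene was counted by its intron with most spliced pairs, and the introns of Syt1 differed in direction. Of the other 5, Rbp9 (26.7 and 19.7 in mutants, against 7.11 and 8.98 in wild type), nSyb and brp were higher in both mutants, while elav and fne overlapped between the groups. Male germ line markers (4 of 13) summed to 15.3 and 10.8 scaled pairs in mutants, against 15.6 and 98.2 in wild type, which sets wild type 2 apart. Muscle markers (7 of 7) summed to 19780 and 11349 scaled pairs in mutants, against 8083 and 6634 in wild type. Fat body markers (4 of 7), mostly larval serum proteins, summed to 2525 and 3026 scaled pairs in mutants, against 32998 and 19895 in wild type. The lipoprotein gene apolpp of that list went the other way, with 1629 and 1725 in mutants, against 1406 and 798 in wild type. The part of these differences in the values below was not tested, and in whole larvae fewer cells of a type and less RNA per cell cannot be told apart.

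Reads of Nepl11 were far more numerous in the mutants. Its intron of 385 bases had 424 and 510 spliced pairs in Smn mutants 1 and 2, against 13 and 6 in wild type 1 and 2. Both mutant libraries were far above both wild type libraries. Pairs that showed the intron unspliced numbered 2 and 2 in mutants, against 0 and 0 in wild type, and pairs within the exons, which fit both forms, numbered 2677 and 3207 against 95 and 35. The deposited retained fraction, the estimated share of transcripts that keep the intron, was 0 in both mutant libraries, against 0.04 and 0.07 in wild type, where few informative pairs were read. The Nepl11 intron was therefore read almost only as spliced in all 4 libraries.

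On the same scale, the Nepl11 event held 1359 and 1667 pairs in Smn mutants 1 and 2, against 48.0 and 24.5 in wild type 1 and 2. The means were 1513 ± 218 in mutants and 36.3 ± 16.6 in wild type (SD, n = 2 each), a 41.7-fold difference. Spliced pairs made up 13.7% and 13.7% of the event's pairs in mutants, against 12.04% and 14.6% in wild type, so the make-up of the reads differed little while their number differed strongly. The log2 difference in spliced pairs was 5.42 (limma SE 0.39), against a median of 0.24 over the 9957 introns in that fit. Leaving out wild type 2 gave 5.10 and leaving out wild type 1 gave 5.75.

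The cpx introns around Nepl11 all appeared far more retained in the mutants. The intron at 3R:117795-120850 (dm3), of 3056 bases, had a retained fraction of 0.93 and 0.95 in Smn mutants 1 and 2, against 0.25 and 0.14 in wild type 1 and 2. The deposited credible intervals were 0.87 to 0.97 and 0.9 to 0.98 in mutants, against 0.15 to 0.39 and 0.07 to 0.25 in wild type. The larger part of that difference lay in the intron-specific pairs, which numbered 2701 and 3246 in mutants, against 102 and 37 in wild type. Pairs spliced over the intron numbered 4 and 5 in mutants, against 6 and 4 in wild type, so the spliced form was barely sampled in any library. Scaled, those spliced pairs came to 1.75 and 2.24 in mutants, against 2.67 and 2.39 in wild type. The log2 ratio of intron-specific to spliced pairs was 5.70 higher in mutants, and 5.24 higher without wild type 2.

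Its companion, which ends 9 bases earlier at the other acceptor, had fractions of 0.95 and 0.93 in mutants, against 0.29 and 0.12 in wild type. An intron that starts within this one, at 117992, had 0.91 and 0.88 in mutants, against 0.15 and 0.05 in wild type. The longer introns had lower fractions in every library. The intron at 110129-120850, of 10722 bases, had 0.27 and 0.42 in mutants, against 0.04 and 0.04 in wild type. The intron that starts at the 12-base exon, 113806-120850, had 0.26 and 0.41 in mutants, against 0.05 and 0.03 in wild type. In all 6 each mutant fraction exceeded each wild type fraction, as was the case in 29.1% of the 11481 introns tested, while it lay below in 9.51%. The log2 ratio differences of the 6 ran from 3.37 to 6.67, with a median of 4.70. The median over all tested introns was 0.59. The highest, at 117992-120841, rests on 0 and 2 spliced pairs in mutants, against 1 and 3 in wild type. The intron at 113806-120850 had 3 and 1 in mutants, against 1 and 0 in wild type. With so few spliced pairs, the size of those ratios depends on the pseudocount and on the intron-specific pairs. These 6 events share most of their read pairs and are not 6 separate measurements.

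The intron-specific pairs of these 6 introns were close in number to the pairs of the Nepl11 event, with which they can share reads. They ranged from 2687 to 2792 in Smn mutant 1, where the Nepl11 event held 3103 pairs, and from 3230 to 3329 in Smn mutant 2, where it held 3719. In wild type 1 they ranged from 96 to 119 beside 108 Nepl11 pairs, and in wild type 2 from 36 to 45 beside 41. The ratio of intron-specific cpx pairs to Nepl11 pairs was thus 0.866 to 0.900 and 0.869 to 0.895 in mutants, against 0.889 to 1.10 and 0.878 to 1.10 in wild type. That ratio stayed near 1 in every library, while both counts were far higher in the mutants. Read pairs within the Nepl11 exons can count for both events, since strand is not marked. The 2 counts are therefore not separate measurements, and a ratio near 1 follows in part from how pairs are counted.

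Pairs that fit neither cpx form, as reads spliced across the Nepl11 intron would, numbered 539 and 652 for the 3056-base intron in mutants, against 38 and 26 in wild type. The Nepl11 spliced pairs beside them numbered 424 and 510 in mutants, against 13 and 6 in wild type.

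**Figure D2:**
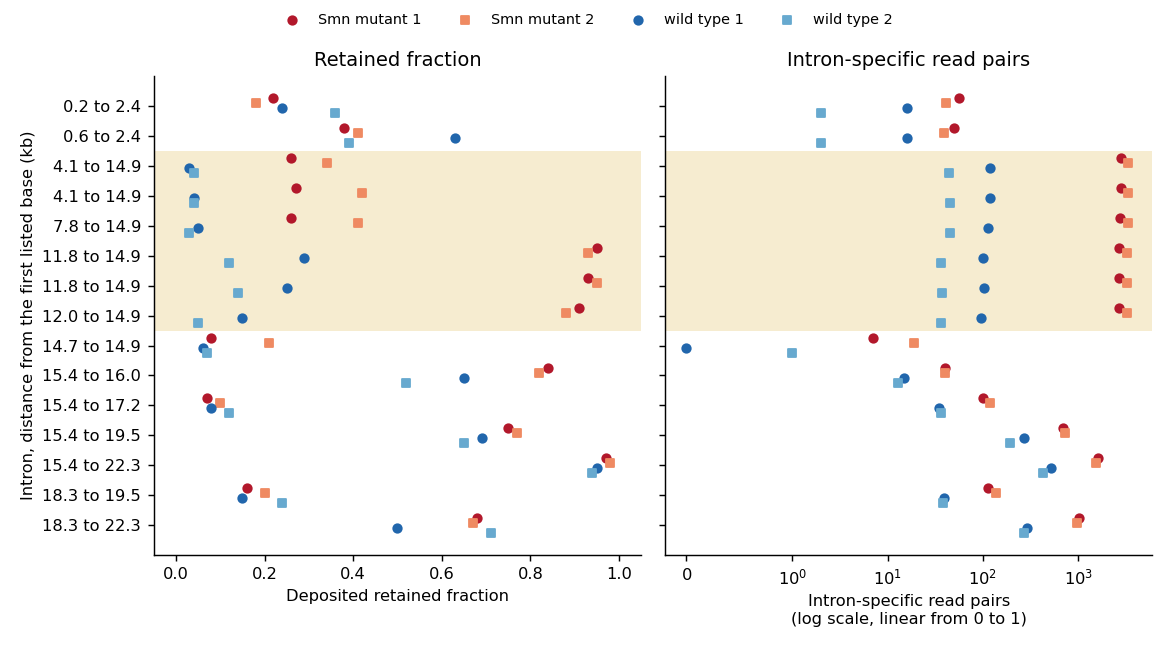
Deposited retained fraction (left) and intron-specific read pairs on a log scale (right) of the 15 cpx introns listed in all 4 libraries, named by their distance in kb from the first listed base of cpx. The shaded introns enclose the Nepl11 intron, and in them the mutant points sit at 2687 to 3329 pairs, against 36 to 119 in wild type. The paired labels 4.1 to 14.9 and 11.8 to 14.9 differ in which of the 2 acceptors they use.

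Where the pairs lay along the long intron can be read by subtraction. The 10722-base intron held 91 and 83 more intron-specific pairs than the 3056-base intron in Smn mutants 1 and 2, and 17 and 8 more in wild type 1 and 2. Those pairs belong to its first 7.67 kb, which lies outside the shorter intron. Per kb, that stretch held 11.9 and 10.8 pairs in mutants, against 2.22 and 1.04 in wild type, while the 3056-base intron around Nepl11 held 884 and 1062 pairs per kb in mutants, against 33.4 and 12.1 in wild type. On the scale of spliced pairs, the first stretch had 39.8 and 37.2 pairs in mutants, against 7.56 and 4.79 in wild type, a 6.24-fold difference. Both parts of the intron were higher in the mutants, and the part around Nepl11 by much more. The first stretch also holds exons of other cpx transcripts, such as the 12-base exon, and its wild type counts are small.

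The events that end inside this first stretch had few pairs. The intron at 110129-113793 had 30 and 26 intron-specific pairs in mutants, against 6 in wild type 1, and the intron at 110129-114931 had 47 and 34 in mutants, against 10 in wild type 1. Neither was listed in wild type 2.

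The cpx introns away from Nepl11 gave a different picture. At 121423-123209, downstream of Nepl11, the retained fraction was 0.07 and 0.1 in Smn mutants 1 and 2, against 0.08 and 0.12 in wild type 1 and 2, and the groups overlapped. This intron had enough reads of both forms to measure, with 100 and 118 intron-specific and 80 and 74 spliced pairs in mutants, against 35 and 36 intron-specific and 30 and 19 spliced pairs in wild type. At 124308-125511 the fraction was 0.16 and 0.2 in mutants, against 0.15 and 0.24 in wild type, with 113 and 137 intron-specific and 41 and 35 spliced pairs in mutants, against 39 and 38 intron-specific and 10 and 5 spliced pairs in wild type. Both introns were mostly spliced in every library, and their log2 ratio differences were -0.07 and -0.66.

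Of the remaining downstream introns, 3 are alternatives that skip the exon at 123210-124307 or run to the last exon, so they contain exons of other cpx transcripts. At 121423-128247 the fraction was 0.97 and 0.98 in mutants, against 0.95 and 0.94 in wild type. At 121423-125511 it was 0.75 and 0.77 in mutants, against 0.69 and 0.65 in wild type. At 124308-128247 it was 0.68 and 0.67 in mutants, against 0.5 and 0.71 in wild type. That intron had a log2 ratio difference of 2.98, but its spliced pairs numbered 0 and 0 in mutants, against 0 and 2 in wild type, and no more can be read from it. At 121423-122021, a shorter alternative, it was 0.84 and 0.82 in mutants, against 0.65 and 0.52 in wild type, on 40 and 40 intron-specific pairs against 15 and 13.

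Upstream, the introns from 2 alternative first exons to 108396 were less clear. At 106192-108395 the fraction was 0.22 and 0.18 in mutants, against 0.24 and 0.36 in wild type, and at 106545-108395 it was 0.38 and 0.41 in mutants, against 0.63 and 0.39 in wild type. Wild type 2 had 2 informative pairs in each. The 175-base intron at 120667-120841, next to the Nepl11 exons, had 7 and 19 intron-specific pairs in mutants, against 0 and 1 in wild type, and fractions of 0.08 and 0.21 against 0.06 and 0.07. Over the 9 cpx introns that do not enclose Nepl11, the fraction was higher in both mutants for 4, lower in both for 1 and overlapping for 4. Among all tested introns 29.1% were higher and 9.51% lower. Only 5 of the 9 had the pairs required of tested introns, so the shares are not like for like. The log2 ratio differences of the 5 with enough pairs ran from -0.66 to 2.98, with a median of 0.06.

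Over the cpx introns with enough pairs, reads were more numerous in the mutants, whether spliced or not. The few pairs spliced over the 3056-base intron did not follow, with 1.75 and 2.24 scaled pairs in mutants, against 2.67 and 2.39 in wild type. Enough spliced pairs to fit were read over 4 cpx introns. Pairs spliced over 121423-123209 came to 35.0 and 33.2 scaled pairs in Smn mutants 1 and 2, against 13.3 and 11.4 in wild type 1 and 2, a 2.76-fold difference. Pairs spliced over 124308-125511 came to 17.95 and 15.7 scaled pairs in mutants, against 4.45 and 2.99 in wild type, a 4.52-fold difference. For the long intron, spliced pairs to the farther acceptor came to 27.1 and 17.5 scaled pairs in mutants, against 8.89 and 4.19 in wild type, and to the nearer acceptor to 31.1 and 29.1 in mutants, against 16.5 and 4.79 in wild type. These were 3.41-fold and 2.84-fold differences, although a pair that does not read the junction itself may count for both acceptors.

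In all 4 introns both mutants were above both wild type libraries, which held for 38.9% of the 9957 introns in that fit, and below for 21.2%. The filter of 20 spliced pairs in 2 libraries was met by both mutants in all 4, while wild type 2 fell short in each. It thus favoured introns higher in mutants, and their agreement is not separate support. The long intron, with its 2 acceptors, counts for 2 of the 4. The log2 differences ran from 1.45 to 2.13 with a median of 1.76, and relative to the median of all introns they ran from 1.21 to 1.89. The intron-specific pairs of the 6 introns away from Nepl11 that had 10 or more of them in each library differed by 2.45-fold to 3.01-fold, with a median of 2.73-fold. The upstream introns at 106192 and 106545 gave 5.16-fold and 4.74-fold, with 2 pairs each in wild type 2, and the intron at 120667, with 0 and 1 pairs in wild type, gives no usable fold. Those of the 6 introns around Nepl11 differed by 34.0-fold to 40.9-fold. The Nepl11 event, which can share read pairs with them, differed by 41.7-fold. At 121423-123209 spliced and intron-specific pairs differed by 2.76-fold and 2.60-fold, and at 124308-125511 by 4.52-fold and 2.77-fold.

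**Figure D3:**
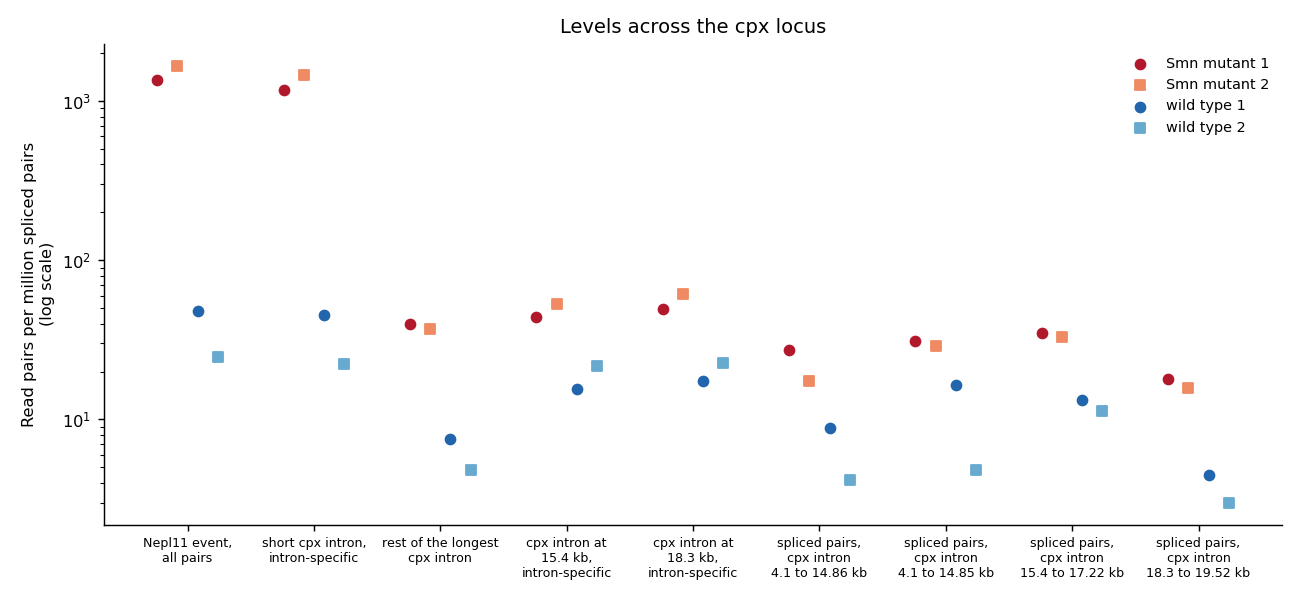
Scaled read pairs, on a log axis in pairs per 1000000 spliced pairs, in each library for Nepl11, for intron-specific pairs of cpx and for pairs spliced over cpx introns. Nepl11 and the 3056-base cpx intron around it (marked as short) lie above 1100 in both mutants, against under 50 in wild type. The other cpx values shown lie from 15.7 to 61.4 in mutants, against 2.99 to 22.7 in wild type. Not every cpx intron is drawn. Intron-specific pairs at 121423-128247, not shown, came to 701 and 691 in mutants, against 231 and 253 in wild type.

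The skipped exons and the alternative 3′ site of cpx gave little room to compare the groups. Few pairs informed them, or nearly all pairs were of the same form. The choice of donor is not covered here, and the few pairs spliced over the 3056-base intron did not follow those of the 10722-base intron. The 12-base exon adds 4 codons near the start of the protein and was read as follows on dm6 (3R:4288062-4288093, plus strand), with the exon in capitals.
cpx 12-base exon: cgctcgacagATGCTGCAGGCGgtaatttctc
Its included fraction was 0.22 and 0.21 in Smn mutants 1 and 2, against 0.45 and 0.24 in wild type 1 and 2. The pairs behind those values were few, with 7 and 5 for inclusion and 15 and 12 for skipping in mutants, against 3 and 0 for inclusion and 1 and 2 for skipping in wild type. The deposited interval of wild type 1 ran from 0.14 to 0.81 and that of wild type 2 from 0.01 to 0.67, and both cover the mutant values. A difference in this exon was not detectable at this depth.

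The exon at 123210-124307 carries the stop codon of most cpx isoforms, and an isoform that skips it takes its end from the last exon. It was included at a fraction of 0.98 and 0.99 in mutants, against 0.97 and 0.97 in wild type, on 563 and 539 inclusion pairs against 224 and 138. Skipping was read by 1 and 0 pairs in mutants, against 0 and 0 in wild type. At the alternative 3′ site (108396 or 109948), 20 and 23 pairs fell in the longer form in mutants, against 5 and 2 in wild type, and no pair was specific to the shorter form in any library.

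The exon tables allow cpx to be seen across larval stages, with libraries that the choice of this locus did not use. They give, per exon bin, the authors' log2 fold in usage relative to the rest of the gene and a DEXSeq p-value, but no value per library and no bin coordinates. In the authors' deposited table of puff stage 1-2 against second instar, 0 of 19 tested cpx bins passed an adjusted p of 0.05 by DEXSeq, where 1.03% of all tested bins did. An unadjusted p under 0.05 was given there for 6 cpx bins, and the lowest adjusted p was 0.689. In the authors' deposited table of puff stage 1-2 against the third instar at 12 h, 0 of 13 tested bins passed and 0 had an unadjusted p under 0.05, where 0.638% of all bins passed. Among bins with a mean normalized count of at least 10, the log2 folds ran from -0.57 to 0.34 (8 bins) in the first of these and from -0.21 to 0.21 (7 bins) in the second. Both comparisons share the puff stage libraries.

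In the authors' deposited table of Smn mutants against wild type, 0 of 21 tested cpx bins passed, 1 had an unadjusted p under 0.05, and 2.99% of all bins passed. The log2 folds of its 8 bins with a mean count of at least 10 ran from -0.17 to 0.05. The highest mean counts there were 298 and 218, in bins 31 and 30. Nepl11 has 2 bins, and neither passed in any of the 3 tables. Their mean normalized counts in the authors' deposited tables were 394 and 481 over mutant and wild type libraries, 39.1 and 36.0 over puff stage and second instar libraries, and 74.2 and 65.8 over puff stage and 12 h libraries. Those means pool both groups of each table and were normalized within it, so they give no level per stage.

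To place the locus among others of its kind, introns elsewhere that enclose a listed intron of the opposite strand were gathered. There were 165 such introns with enough pairs, in 107 loci. The limma fit called 1 of them, where it called 0.392% of all introns. It was in Oda, which encodes ornithine decarboxylase antizyme, around SmD3, a core protein of the spliceosomal particles. Oda was chosen for mention after its values were seen: its log2 ratio difference was 0.80 (SE 0.0608, limma adjusted p 0.0491), and its fraction was 0.01 and 0.02 in mutants, against 0.01 and 0.01 in wild type. The median log2 ratio difference of the 165 was 0.37, against 0.59 for all introns. Each mutant fraction exceeded each wild type fraction in 34.5%, against 29.1% of all introns, and below in 18.8%, against 9.51%.

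None of these 165 had a nested intron that changed as much as that of Nepl11. Only 1 nested intron had at least 2 log2 units more spliced pairs in the mutants, and 6 introns enclosed one with at least 2 log2 units fewer. The first was in CG5888, around Idgf1, an imaginal disc growth factor. Idgf1 had 282 and 358 spliced pairs in Smn mutants 1 and 2, against 48 and 58 in wild type 1 and 2. The CG5888 intron around it had 2488 and 3521 intron-specific pairs in mutants, against 647 and 662 in wild type, and retained fractions of 0.34 and 0.53 against 0.19 and 0.12. Its log2 ratio was 1.95 higher in mutants (SE 0.567, limma adjusted p 0.166), which did not pass.

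The other 6 had a median log2 ratio difference of -1.41, and 1 of the 6 was higher in mutants. One is Gart, a purine synthesis gene whose intron holds Pcp, a pupal cuticle protein gene, long known as a gene within a gene. Another of the 6, at 2L:7019383-7024149 with no gene match, encloses the same Pcp intron and overlaps that of Gart. They are not separate measurements. Pcp had 15 and 8 spliced pairs in mutants, against 50 and 90 in wild type, and the Gart intron had fractions of 0.03 and 0.02 in mutants, against 0.15 and 0.09 in wild type. Its log2 ratio was 1.64 lower in mutants by value (log2 difference -1.64, SE 0.255, limma adjusted p 0.0868), which did not pass. In sov, around a long noncoding RNA, the fraction was 0.47 and 0.52 in mutants, against 0.85 and 0.88 in wild type, with 0 and 1 nested spliced pairs in mutants, against 8 and 7 in wild type. Zasp66, a muscle Z-disc gene, and Srx, sulfiredoxin, had fractions of at most 0.03 in all libraries. The threshold of 2 log2 units was chosen after the values were seen.

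**Figure D4:**
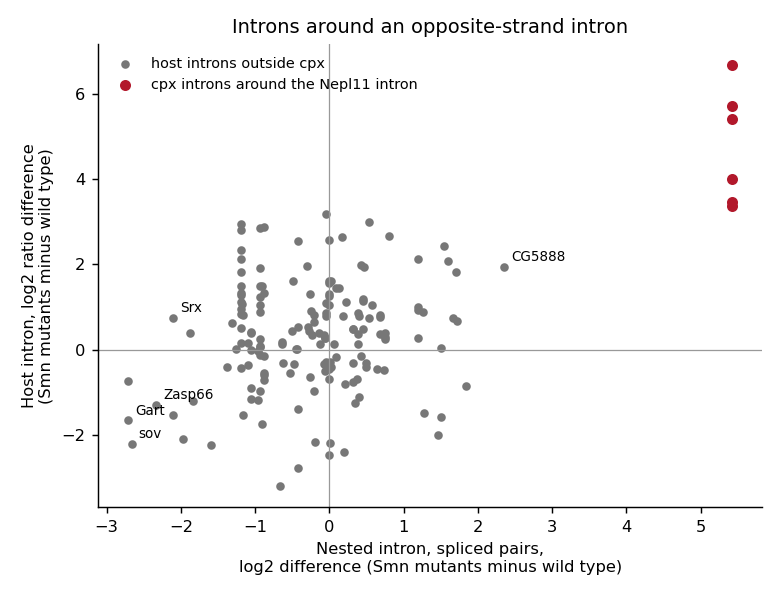
Each point is an intron that encloses an opposite-strand intron, placed by the log2 difference in spliced pairs of the nested intron (horizontal) and the log2 difference in its own ratio of intron-specific to spliced pairs (vertical), Smn mutants minus wild type. The 6 cpx introns stand at 5.42 on the horizontal axis and from 3.37 to 6.67 on the vertical axis, apart from the 165 others. Named genes are those whose nested intron differed by at least 2 log2 units.

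The 5 introns of this kind with the largest ratio differences did not enclose a nested intron past 2 log2 units. Those were in the cuticle protein gene Cpr56F (log2 difference -3.19), the Hedgehog co-receptor gene boi (3.18), the cyclin gene CycG (2.99), the chromatin protein gene mod(mdg4) (2.95) and an intron with no gene match at 2L:71805-74902 (2.89). The log2 differences in spliced pairs of their nested introns were -0.66, -0.05, 0.54, -1.19 and -0.88 in that order. In boi the fraction was 0.98 and 0.95 in mutants, against 0.81 and 0.79 in wild type, with 0 and 2 spliced pairs in mutants, against 8 and 10 in wild type. The difference there lay in the spliced pairs, while its intron-specific pairs were 377 and 362 in mutants, against 330 and 359 in wild type. None of the 5 passed the limma test.

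Introns elsewhere had retained fractions like those of cpx. By distance in retained fraction over the 4 libraries, the 5 introns outside cpx most like the 3056-base intron were in mol, ect and Cht6 and in 2 introns with no gene match. The nearest, X:657267-657473 (distance 0.169), had fractions of 0.92 and 0.86 in mutants, against 0.34 and 0.25 in wild type. In mol (2L:14977647-14992306, distance 0.200), which encodes a maturation factor of dual oxidase, they were 0.8 and 0.89 in mutants, against 0.12 and 0.09 in wild type. The intron-specific pairs of mol numbered 841 and 1021 in mutants, against 123 and 135 in wild type. In Cht6, a chitinase gene (X:9928633-9934724, distance 0.234), they were 0.91 and 0.8 in mutants, against 0.41 and 0.22 in wild type. The other two were ect (distance 0.234) and 3R:5324232-5328096 (distance 0.217). None of the 5 encloses a listed intron of the opposite strand, though nested genes without a listed intron were not looked for, and each had at most 4 spliced pairs in any library.

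Genes listed for the pathway that complexin acts in were set beside it. In whole larvae, their reads from the synapse and from other places cannot be told apart. A list of 32 presynaptic genes held 20 with a listed intron. The limma fit of retention called 0 of their 51 tested introns, beside 0.392% of all introns, with 6 at an unadjusted p under 0.05, and the median log2 ratio difference was 0.14. Both mutants lay above wild type in fraction for 10 introns and below for 10, where 29.1% of all introns lay above and 9.51% below. The fit of spliced pairs called 0 of 36, where it called 0.191% of all introns, with 11 at an unadjusted p under 0.05. Without wild type 1 it called 21 of the 36, and without wild type 2 it called 10. The median log2 difference was 0.14, against 0.24 over all introns, and both mutants lay above wild type for 13 introns and below for 9, where 38.9% of all introns lay above and 21.2% below.

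By the intron with most spliced pairs of each gene, both mutants were above both wild type libraries for 10 of the 20 genes and below for 2. Over all fitted introns the shares were 38.9% above and 21.2% below, but those introns had at least 20 spliced pairs in 2 libraries. Some of the 20 genes, nSyb and brp among them, were counted on fewer, so the shares are not like for like. nSyb, the neuronal synaptobrevin of the vesicle membrane, had 10.5 and 8.07 scaled spliced pairs in Smn mutants 1 and 2, against 2.22 and 0.598 in wild type 1 and 2. Those rest on 24 and 18 pairs in mutants, against 5 and 1 in wild type, too few for the fit. Csp, the cysteine string protein that acts as a vesicle chaperone, had 108 and 145 in mutants, against 58.2 and 48.5 in wild type. Syn, the vesicle-tethering synapsin, had 11.8 and 9.86 in mutants, against 3.56 and 4.79 in wild type, on 8 and 8 pairs in wild type. The endocytic genes shi, which encodes dynamin, and EndoA, which encodes endophilin, had 1.95-fold and 1.93-fold more in mutants.

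By their intron with most spliced pairs, others of the list did not follow cpx. Syt1, the calcium sensor of fusion, had 39.8 and 27.8 scaled pairs in mutants, against 40.9 and 132 in wild type. By that intron it was lower in both mutants, mainly against wild type 2. The other fitted introns of Syt1 had log2 differences in spliced pairs of -1.38, -0.48 and 0.52, so they did not all go the same way. The vesicle-priming gene unc-13 had 9.19 and 8.51 in mutants, against 9.34 and 9.58 in wild type, and Syb, the other synaptobrevin, had 251 and 214 in mutants, against 195 and 404 in wild type. The neuronal marker elav was at 8.32 and 8.96 scaled pairs in mutants, against 7.11 and 9.58 in wild type. By its intron with most spliced pairs, cpx was thus higher in both mutants, as were nSyb, Csp and Syn. By the same measure elav and Syb overlapped between the groups, while unc-13 was slightly lower in both mutants and Syt1 lower in both.

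**Figure D5:**
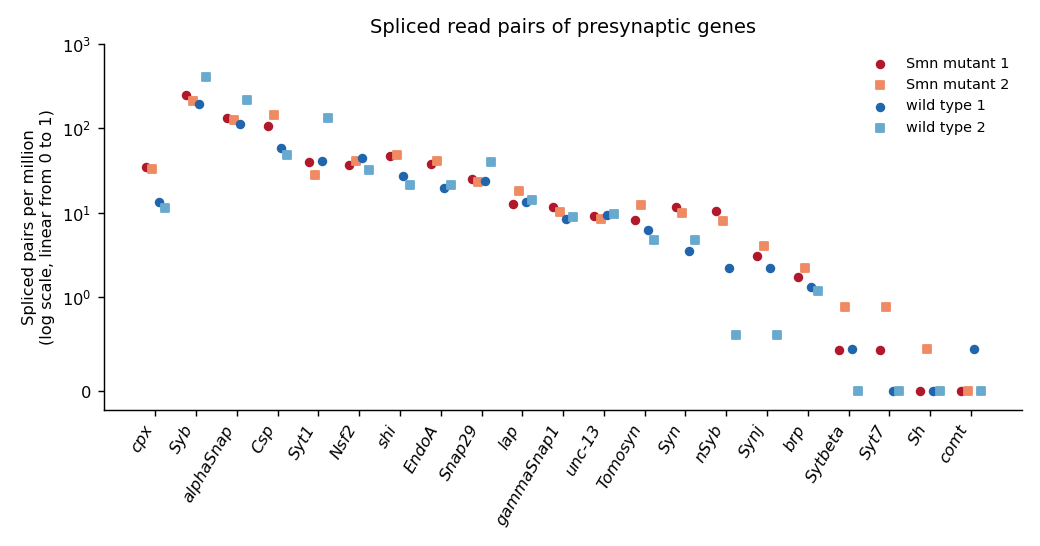
Scaled spliced read pairs (per 1000000) in each library, on a log scale that is linear from 0 to 1, for the cpx intron with most spliced pairs and for 20 presynaptic genes by theirs, ordered by mean level. Both mutants lie above both wild type libraries for cpx and for 10 of the 20 genes.

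Exon bins of some presynaptic genes passed where none of cpx did, and whether the share of bins differs was not tested. In the authors' deposited table of Smn mutants against wild type, 6 of 249 tested bins passed (2.41%, against 2.99% of all bins), in Syt1 (3 bins), Syb, unc-13 and Csp. In the authors' deposited table of puff stage 1-2 against second instar, 10 of 247 passed (4.05%, against 1.03%), 8 of them in Syt1 and the other two in Syn. In the authors' deposited table of puff stage 1-2 against the third instar at 12 h, 2 of 193 passed (1.04%, against 0.638%), both in Syt1. Syt1 bin 13 had a log2 fold of 1.31 in the mutant table (DEXSeq adjusted p 6.50e-06) and of -2.26 at puff stage 1-2 against second instar (DEXSeq adjusted p 6.77e-08). Syt1 bin 1 had 0.64 (DEXSeq adjusted p 1.29e-05) and -1.08 (DEXSeq adjusted p 2.84e-09) in the same tables. The 2 bins of Syn had log2 folds of 0.97 and 1.11 at puff stage 1-2 against second instar (DEXSeq adjusted p 0.00740 and 4.31e-05).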

How the data were processed

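Whole-larva RNA-seq libraries (2 Smn mutant, 2 wild type) were processed by the authors with TopHat2 2.0.8, Bowtie2 2.1.0 and MISO 0.4.8 on dm3, per the submitters' processing notes, which also name DEXSeq 1.0.2. MISO files hold, per the file headers, a retained or included fraction with its interval, read pairs by isoform class, a score for the difference in fraction and a ratio (Bayes factor) per pair of libraries. The authors' deposited exon tables hold a dispersion score, p-value, adjusted p-value, mean normalized count (a signal averaged by the authors) and log2 fold. The stage tables rest on 3 puff stage libraries, 2 of the second instar and 2 of the third instar at 12 h from modENCODE.

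Read classes were taken from the deposited pairings, and 679847 values present in several files were compared, of which 0 differed. Introns with at least 20 isoform-specific pairs in every library were fitted as log2((intron-specific + 0.5)/(spliced + 0.5)) with limma 3.58.1 in R 4.3.3, weighted by counting variance, with Benjamini-Hochberg adjustment over all introns. Log2 differences given are unweighted differences of group means, and the SE is limma's. Spliced pairs with at least 20 in 2 libraries were scaled to their total and fitted on log2 values with a pseudocount of 0.5, which understates changes of rarely read introns. Scaled pairs are per 1000000 of that total. Functions were tested on simulated data. For the ratio fit, these held only introns with a mean of at least 10 pairs of each isoform. The wider set of introns fitted here for ratios was not simulated. An exact permutation test of 2 against 2 libraries has a smallest two-sided p of 0.333. Read pairs are not independent molecules.

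Events were given gene names by matching intron and exon lengths and relative positions to the dm6 annotation (20243 of 26072 retained introns), without converting coordinates; host genes elsewhere were matched in the same way. Named by rule were cpx, genes opposite to its introns, the 5 introns nearest by fraction and the 5 enclosing introns with the largest ratio difference. Presynaptic genes with a call were named too. Other genes named (nSyb, shi, EndoA, elav, fne, brp, Rbp9, apolpp, Oda, CG5888, Gart, sov, Zasp66 and Srx) were chosen after their values were seen. The members, the gene lists and these rules were chosen with earlier results of these data known. Same-numbered libraries did not deviate together, with correlations of -0.0016 for ratios and -0.0167 for spliced pairs.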

Additional observations from a re-analysis of the deposited data

How the results depend on the processing

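The 3056-base cpx intron kept its direction under every alternative that could be fitted, with log2 ratio differences from 5.24 to 6.16. It could not be fitted where a mean of 10 pairs of each isoform was required, since its spliced pairs are fewer. The Nepl11 difference in spliced pairs ran from 5.10 to 5.75 over its alternatives. Neither moved by more than the spread between replicates, but for several alternatives this was fixed in advance. With 2 libraries per group, leaving out a library cannot shift the difference by more than that spread. The replicate block, and for cpx the fit without weights, kept the same group means by construction (5.70 and 5.42). These alternatives are therefore no check of stability. Among the others, the values farthest from these were 6.09 for cpx (logit of the deposited fraction) and 5.18 for Nepl11 (median ratio scaling). The count of cpx bins called stayed at 0 under both alternatives in each exon table.

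The median log2 ratio difference of introns that enclose an opposite-strand intron, 0.37, was 0.29 with at least 10 pairs of each isoform on average, 0.28 on the logit of the deposited fraction and 0.52 where any overlap sufficed. Presynaptic introns called went from 0 to 1 with 10 pairs of each isoform (in Csp) and to 1 on the logit (in Syb).

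Counts over all introns depended more on the processing. The 45 retained introns called became 262 with a pseudocount of 1, 400 with 10 pairs of each isoform, 976 on the logit, 0 without weights, 0 with a replicate block and 0 without any 1 library. The 19 introns called for spliced pairs became 42 with median ratio scaling, 378 with a replicate block and 121 to 5184 without 1 library; of the 36 presynaptic introns, 21 were called without wild type 1, 10 without wild type 2 and 0 without either mutant library. Same-numbered libraries of the 2 groups share only a number, as far as the labels say, and the pairing check found no link between them. Introns with non-overlapping fractions, 3336 higher and 1092 lower in mutants, were 2092 and 624 with at least 40 pairs, 1017 and 369 with a difference of at least 0.1, and 1686 lower with at least 10 pairs. The causes were not tested. Depth limits the wild type side of cpx, where spliced pairs of the long introns numbered 0 to 37 per library.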
